A study of Mus musculus with 6 samples.

Results

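The genes described are the mouse phosphofructokinase isoform genes Pfkl, Pfkm and Pfkp together with the 4 Pfkfb genes, Pfkfb1, Pfkfb2, Pfkfb3 and Pfkfb4. They were chosen by symbol, 7 genes among the 15016 in the table, after Pfkp had been seen among the genes lower in stiff gels, so their differences between the gels are a description and carry no test. RNA was sequenced from organoids, 3-dimensional cultures grown from cochlear progenitor cells of wild-type mouse inner ear, in 3 libraries from soft and 3 libraries from stiff hydrogels. All organoids were first expanded for 8 to 10 days in DMEM/F-12 with N2 and B27, penicillin and streptomycin, EGF, bFGF and IGF (50 ng/ml each), 3 µM CHIR99021 (a GSK3 inhibitor that raises Wnt signalling), 500 µM valproic acid (a histone deacetylase inhibitor), 2-phospho-L-ascorbic acid (a stable vitamin C) and 2 µM 616452 (an inhibitor of the TGF-beta type I receptor). Both groups were then kept in the same differentiation medium, with 3 µM CHIR99021 and 5 µM LY411575, which inhibits gamma-secretase and thereby Notch signalling, and differed in the stiffness of the gel. The labels do not say whether replicates 1 to 3 were separate cultures or animals, so any p-value reflects only how these libraries vary, and that variation may be technical. The comparison asks how matrix stiffness acts on the cells at the differentiation stage.

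Phosphofructokinase-1 converts fructose 6-phosphate to fructose 1,6-bisphosphate, the step that commits sugar to glycolysis, and works as a tetramer that can mix subunits. Pfkl encodes the subunit known from liver, Pfkm the one known from muscle and Pfkp the one known from platelets, although many tissues make all of them. The Pfkfb genes encode bifunctional enzymes that make and remove fructose 2,6-bisphosphate, a strong activator of phosphofructokinase-1. Pfkfb1 is known from liver and muscle, Pfkfb2 from heart, Pfkfb3 is the inducible form with high kinase activity, and Pfkfb4 is known from testis and, like Pfkfb3, from hypoxic cells.

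Levels are given as FPKM, fragments per kilobase of gene scaled to the depth of the library, so that genes of different length can be compared. Reads rebuilt from these values summed to between 16108470 and 17899391 per library. Along the main axis of variation over all tested genes (62.5% of the variance), soft replicate 1 stood at -1.94, between soft replicates 2 and 3 at -16.1 and -18.9 and the stiff libraries at 7.89 to 17.3, of which stiff replicate 3 lay farthest out.

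Pfkl was the most abundant of the 7 genes in every library and Pfkfb1 the least abundant. By the mean of each gel Pfkm and Pfkp came after Pfkl. Single libraries differed, with Pfkp above Pfkm in soft replicates 2 and 3 and below Pfkfb2 in stiff replicate 3. In soft gels the mean levels ran from Pfkl through Pfkm, Pfkp, Pfkfb3, Pfkfb2 and Pfkfb4 to Pfkfb1. The ranges of Pfkm and Pfkp overlapped there (the lowest Pfkm was 21.9 FPKM and the highest Pfkp 25.9 FPKM), as did those of Pfkfb3 and Pfkfb2. In stiff gels Pfkfb2 stood above Pfkfb3, with 5.26 FPKM in its lowest library against 5.01 FPKM in the highest of Pfkfb3. Pfkp and Pfkfb2 overlapped in stiff gels, with 5.20 FPKM in the lowest Pfkp library and 5.77 FPKM in the highest Pfkfb2 library. The other neighbours in the order did not overlap in either gel. The order depends on the gene lengths behind the FPKM. For Pfkfb2 that length was 9789 bases, against 7254 bases of exons in GENCODE, and for Pfkp 4475 against 13401. By rebuilt reads, Pfkfb2 was above Pfkfb3 in soft replicates 1 to 3 (972, 1080 and 1076 against 560, 820 and 915). Pfkp took 17.4% of the phosphofructokinase-1 reads in soft gels on average, and Pfkm 14.7%.

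**Figure D1:**
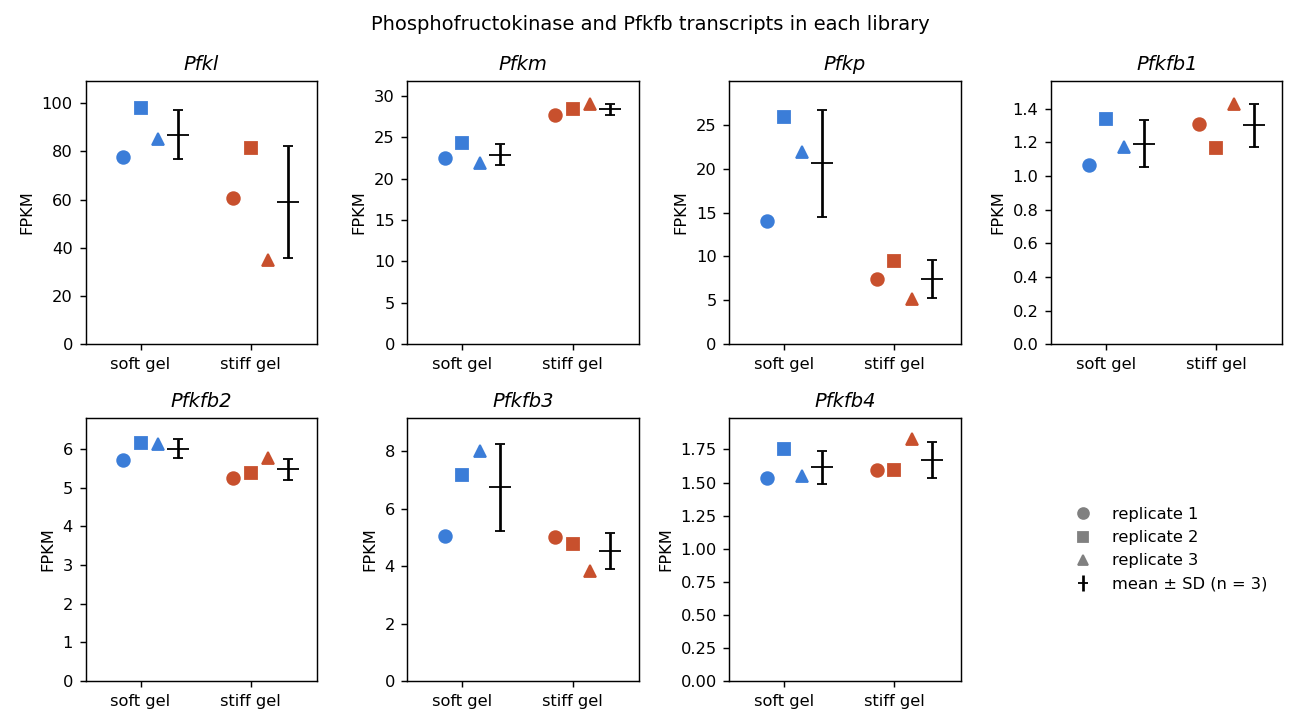
FPKM of each of the 7 genes (vertical axis from 0, a separate scale per gene) in soft gels (blue) and stiff gels (red), with 1 symbol per replicate and the mean ± SD of 3 libraries in black. Pfkp lies at 14.0 FPKM or more in soft gels and at 9.53 FPKM or less in stiff gels, Pfkm is higher in every stiff library, and Pfkl, Pfkfb1, Pfkfb2 and Pfkfb4 overlap between the gels.

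Pfkp (ENSMUSG00000021196, chromosome 13, 6579768 to 6648777, minus strand, GRCm38) had the largest difference of the 7 genes. It was at 14.0, 25.9 and 21.9 FPKM in soft replicates 1 to 3 and at 7.45, 9.53 and 5.20 FPKM in stiff replicates 1 to 3. Every stiff library was below every soft one, and soft replicate 1 was the soft library closest to the stiff gels. The mean was 20.6 ± 6.07 FPKM in soft gels and 7.39 ± 2.17 FPKM in stiff gels (SD, n = 3 each), which is 2.79-fold higher in soft gels. The log2 fold change was -1.36 ± 0.23 (SE), as stiff minus soft on the scale of log2(FPKM + 1), and -1.51 in the authors' deposited table. In such bulk samples, fewer cells that express Pfkp and less Pfkp RNA per cell cannot be told apart.

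The promoters of Pfkp, Pfkl and Pfkfb3, the 3 genes with the largest differences, are shown because several enzymes of glycolysis are known targets of the hypoxia-inducible factors, which bind the cores ACGTG and GCGTG. Each sequence is the 250 bases before an annotated RefSeq start (GRCm38.p6), read in the direction of the gene. Capitals mark ACGTG and GCGTG on either strand, so CACGT and CACGC are capitals too. Pfkfb3 has a pair of starts in the table, the second further upstream, and the data do not tell which was used.
Pfkp, chr13:6648772-6649021, minus strand: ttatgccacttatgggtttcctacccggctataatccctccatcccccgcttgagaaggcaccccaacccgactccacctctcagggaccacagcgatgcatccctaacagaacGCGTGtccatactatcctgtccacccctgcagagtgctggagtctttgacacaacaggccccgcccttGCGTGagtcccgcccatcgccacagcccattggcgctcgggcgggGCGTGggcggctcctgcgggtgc
Pfkl, chr10:78009808-78010057, minus strand: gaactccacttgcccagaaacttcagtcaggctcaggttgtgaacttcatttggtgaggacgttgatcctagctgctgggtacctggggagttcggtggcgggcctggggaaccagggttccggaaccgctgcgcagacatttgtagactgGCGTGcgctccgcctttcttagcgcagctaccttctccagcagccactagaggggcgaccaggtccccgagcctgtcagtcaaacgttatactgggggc
Pfkfb3, chr2:11502091-11502340, minus strand: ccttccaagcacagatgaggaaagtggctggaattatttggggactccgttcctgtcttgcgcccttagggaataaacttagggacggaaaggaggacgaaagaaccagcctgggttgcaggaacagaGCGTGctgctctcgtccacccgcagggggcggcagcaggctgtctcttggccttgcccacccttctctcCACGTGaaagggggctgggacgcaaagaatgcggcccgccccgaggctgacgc
Pfkfb3, chr2:11553930-11554179, minus strand: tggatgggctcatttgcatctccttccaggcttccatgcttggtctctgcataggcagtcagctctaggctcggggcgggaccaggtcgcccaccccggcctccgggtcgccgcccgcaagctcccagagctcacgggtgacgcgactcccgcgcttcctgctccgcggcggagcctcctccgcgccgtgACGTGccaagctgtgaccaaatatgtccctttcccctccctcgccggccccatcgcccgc

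The Pfkp window holds GCGTG 3 times, starting 136, 68 and 23 bases before the start. The Pfkl window holds it 1 time, at 99 bases before the start. The downstream Pfkfb3 window holds GCGTG and the E-box CACGTG, whose letters count as ACGTG on both strands, and the upstream one holds ACGTG 1 time. Of 32851 such windows in all, 38.6% hold at least 1 of the cores, 6.58% hold at least 3 matches, 16.6% hold ACGTG, 28.2% hold GCGTG and 6.02% hold CACGTG. All 7 genes had at least 1 window, and 12 of their 16 windows hold a core, among them 3 of the 4 windows of Pfkm, which was higher in stiff gels. These windows are not all separate. Windows 2 and 3 of Pfkm overlap and count the same CACGC, and windows 2 and 3 of Pfkfb2 overlap at their ends. A match of these letters is a description of the window and not a binding site.

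Pfkl (ENSMUSG00000020277, chromosome 10, 77986947 to 78010083, minus strand) was at 77.6, 97.9 and 85.1 FPKM in soft replicates 1 to 3 and at 60.6, 81.6 and 34.9 FPKM in stiff replicates 1 to 3. The groups overlapped, since stiff replicate 2 was above soft replicate 1, and stiff replicate 3 was far below the other stiff libraries. The means were 86.9 ± 10.3 and 59.0 ± 23.4 FPKM (SD, n = 3 each), with a log2 fold change of -0.63 ± 0.25 (SE). Without stiff replicate 3 the log2 fold change of Pfkl was -0.30.

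Pfkm (ENSMUSG00000033065, chromosome 15, 98092589 to 98132451, plus strand) was the only phosphofructokinase-1 gene with higher values in stiff gels. It was at 22.5, 24.3 and 21.9 FPKM in soft replicates 1 to 3 and at 27.8, 28.4 and 29.1 FPKM in stiff replicates 1 to 3. The groups did not overlap, and the stiff libraries lay close together, stiff replicate 3 included. The means were 22.9 ± 1.26 and 28.4 ± 0.663 FPKM (SD, n = 3 each), 1.24-fold higher in stiff gels, with a log2 fold change of 0.30 ± 0.06 (SE).

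The makeup of the phosphofructokinase-1 transcripts differed between the gels. Pfkp took 12.3%, 17.5% and 17.0% of the summed FPKM of Pfkl, Pfkm and Pfkp in soft replicates 1 to 3, and 7.77%, 7.98% and 7.52% in stiff replicates 1 to 3. Its share was nearly the same in the 3 stiff libraries, stiff replicate 3 included, where the level of Pfkp itself was lowest. Pfkm took 19.7%, 16.4% and 17.0% in the soft libraries and 29.0%, 23.8% and 42.0% in the stiff libraries. The level of Pfkm itself was nearly the same in the stiff libraries (27.8, 28.4 and 29.1 FPKM). The summed FPKM was lowest in stiff replicate 3 (69.2), where the share of Pfkm was highest. The shares of Pfkm and Pfkp did not overlap between the gels. Pfkl took 66.0% to 68.0% in soft gels and 63.3%, 68.3% and 50.4% in stiff replicates 1 to 3, so stiff replicate 3 stood apart and the other stiff libraries lay near the soft range. The mean share was 15.6% ± 2.89 against 7.76% ± 0.23 for Pfkp, 17.7% ± 1.78 against 31.6% ± 9.42 for Pfkm and 66.7% ± 1.12 against 60.7% ± 9.19 for Pfkl, soft against stiff (SD, n = 3 each).

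**Figure D2:**
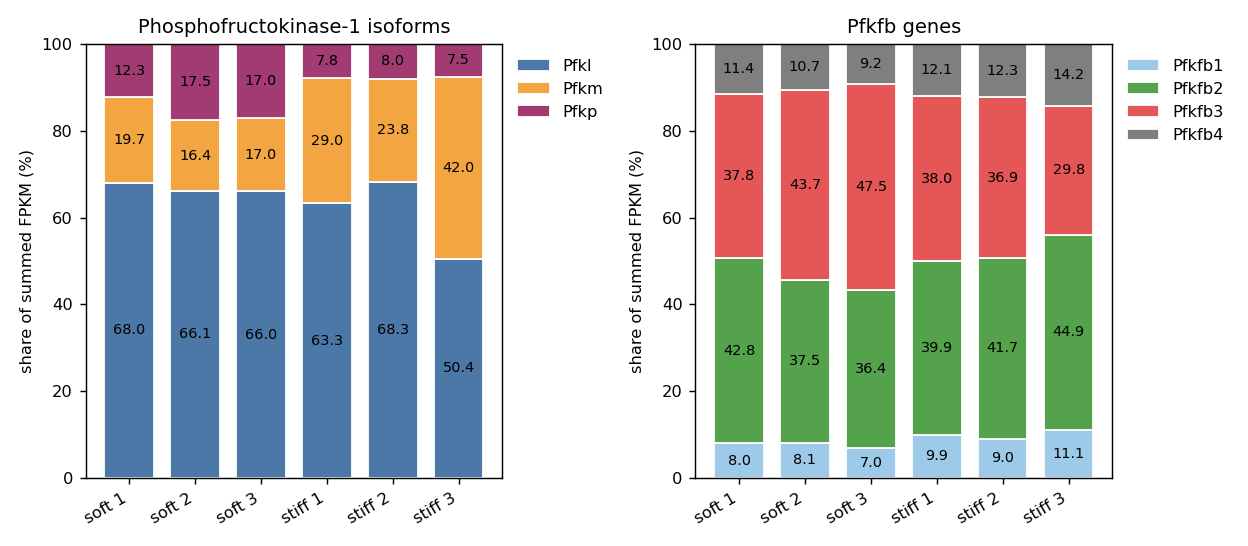
Share of each gene in the summed FPKM (vertical axis, %) of the phosphofructokinase-1 genes (left) and of the Pfkfb genes (right), with 1 stacked bar per library and the share printed in each segment. The Pfkp segment is 12.3% to 17.5% in the soft bars and 7.52% to 7.98% in the stiff bars. The Pfkm segment is largest in stiff replicate 3 (42.0%), the library with the lowest summed FPKM of the phosphofructokinase-1 genes.

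The ratio of Pfkm to Pfkp was 1.61, 0.938 and 0.999 in soft replicates 1 to 3 and 3.73, 2.98 and 5.59 in stiff replicates 1 to 3, with every stiff library above every soft one. The summed FPKM of the 3 genes was 114, 148 and 129 in soft and 95.8, 119 and 69.2 in stiff replicates 1 to 3. The sums overlapped, since stiff replicate 2 exceeded soft replicate 1. Transcript shares are not shares of subunits in the enzyme, which was not measured.

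Among the Pfkfb genes, Pfkfb3 (ENSMUSG00000026773, chromosome 2, 11471433 to 11554077, minus strand) differed most. It was at 5.06, 7.18 and 8.01 FPKM in soft replicates 1 to 3 and at 5.01, 4.78 and 3.82 FPKM in stiff replicates 1 to 3. The groups did not overlap, but soft replicate 1 was only just above stiff replicate 1. The means were 6.75 ± 1.52 and 4.54 ± 0.63 FPKM (SD, n = 3 each), 1.49-fold higher in soft gels, with a log2 fold change of -0.47 ± 0.15 (SE).

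Pfkfb2 (ENSMUSG00000026409, chromosome 1, 130689182 to 130729253, minus strand) was at 5.73, 6.16 and 6.14 FPKM in soft gels and 5.26, 5.39 and 5.77 FPKM in stiff replicates 1 to 3, with a log2 fold change of -0.12 ± 0.07 (SE). Its groups overlapped only through stiff replicate 3 and soft replicate 1. Pfkfb4 (ENSMUSG00000025648, chromosome 9, 108991778 to 109032228, plus strand) was at 1.53 to 1.76 FPKM in soft gels and 1.59 to 1.83 FPKM in stiff gels (log2 fold change 0.03 ± 0.09 SE). Pfkfb1 (ENSMUSG00000025271, chromosome X, 150588229 to 150643878, plus strand) was at 1.06 to 1.34 FPKM in soft gels and 1.17 to 1.43 FPKM in stiff gels (0.07 ± 0.09 SE). The Pfkfb1 values rest on 57 to 74 reads per library, and for the lowest, soft replicate 1, the exact 95% Poisson interval, which covers counting error only, was 43.2 to 73.9 reads.

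Pfkfb2 and Pfkfb3 together made up most of the Pfkfb transcripts. Pfkfb3 took 37.8%, 43.7% and 47.5% of the summed Pfkfb FPKM in soft replicates 1 to 3 and 38.0%, 36.9% and 29.8% in stiff replicates 1 to 3, so its share overlapped between the gels through soft replicate 1. The ratio of Pfkfb3 to Pfkfb2 was 0.884, 1.16 and 1.3 in soft and 0.952, 0.886 and 0.662 in stiff replicates 1 to 3, with the same overlap. The summed Pfkfb FPKM was 13.4, 16.4 and 16.9 in soft and 12.8 to 13.2 in stiff gels, with every stiff library below every soft one.

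In the fit over all genes (limma on log2(FPKM + 1), Benjamini-Hochberg adjusted p under 0.05), 2 of the 7 genes were called, Pfkp as lower and Pfkm as higher in stiff gels, where 5.81% of the 11780 tested genes were called (2.68% as lower and 3.13% as higher). All 7 genes passed the filter of a mean of at least 1 FPKM in either group. Groups that did not overlap were seen for 3 of the 7, Pfkp, Pfkm and Pfkfb3, against 25.9% of the tested genes. By the q values of the authors' deposited table, 3 of the 7 passed 0.05, Pfkp and Pfkfb3 as lower and Pfkm as higher, against 8.12% of its genes. Since these differences led to the choice of the genes, nothing is read from the counts.

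The calls depended on single libraries. Pfkp was called without soft replicate 1 (log2 fold change -1.60) and without stiff replicate 2 (-1.54). Its call was lost without soft replicate 2 (-1.18), soft replicate 3 (-1.29), stiff replicate 1 (-1.38) or stiff replicate 3 (-1.15). Pfkm was called without soft replicate 1 (0.29) but not without soft replicate 2 (0.34), soft replicate 3 (0.27), stiff replicate 1 (0.32), stiff replicate 2 (0.30) or stiff replicate 3 (0.28). Pfkfb3 was called when soft replicate 1 was left out (-0.64) and in no other such fit. The sizes ran from -1.60 to -1.15 for Pfkp (SE 0.23 with all libraries) and from 0.27 to 0.34 for Pfkm (SE 0.06), without a change of sign. The fits with a library less also have fewer libraries to estimate the spread from. Why the calls were lost was not tested.

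**Figure D3:**
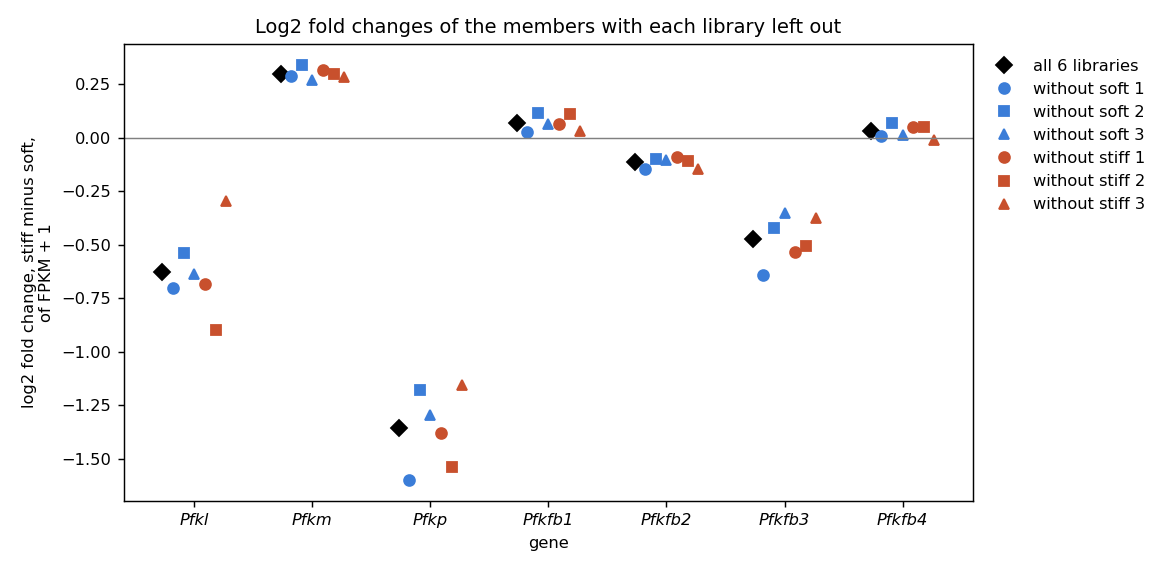
Log2 fold change, stiff minus soft, of FPKM + 1 (vertical axis) for each gene (horizontal axis) with all 6 libraries (black diamond) and with each soft (blue) or stiff (red) replicate left out, the symbol showing which replicate. Pfkp runs from -1.60 to -1.15 and Pfkm from 0.27 to 0.34, whereas Pfkl runs from -0.90 without stiff replicate 2 to -0.30 without stiff replicate 3.

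The enzymes that oppose this step were scarce. Fructose-1,6-bisphosphatase, which reverses phosphofructokinase-1 in glucose synthesis, is encoded by Fbp1 and Fbp2. Fbp1 was at 0 to 0.237 FPKM and below the filter. Fbp2 was at 0.784, 1.90 and 1.05 FPKM in soft gels and 2.20, 1.85 and 2.34 FPKM in stiff replicates 1 to 3, with overlapping groups. Tigar, a phosphatase that lowers fructose 2,6-bisphosphate, was at 0.850 to 1.48 FPKM in soft gels and 0.880 to 1.13 FPKM in stiff gels. Of the 2 tested genes 0 were called (limma; 1, Fbp2, at an unadjusted p under 0.05; 0 by limma-voom on rebuilt reads), against 5.81% of all tested genes.

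The rest of glycolysis lay mostly on the side of Pfkp and Pfkl. Of 27 other glycolysis genes 22 were in the table and 20 were tested. Gapdh, which encodes the dehydrogenase of the pathway, fell from 92.0 ± 6.44 to 64.6 ± 6.25 FPKM (SD, n = 3 each; log2 fold change -0.50 ± 0.08 SE, limma adjusted p = 0.0147). That was the only call in the list, 1 lower and 0 higher, where 2.68% and 3.13% of all tested genes were called, and Gapdh is uncertain because its many processed copies in the genome can share its reads. Limma-voom on rebuilt reads called 3 lower and 0 higher. At an unadjusted p under 0.05, 12 of the 20 were lower and 0 higher, against 9.04% and 12.7% of all tested genes. The same number, 12 of 20 (60.0%), had every stiff library below every soft one, against 10.4% of all tested genes. The median log2 fold change of the list was -0.46, beside 0.03 over all tested genes.

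Taking the most abundant gene at each of 12 other steps from glucose uptake to lactate export, 11 had every stiff library below every soft one. Over all tested genes that share was 10.4%. These 11 genes are among those counted in the glycolysis list above, so the counts are not separate results. Of the 12 genes the exception was Hk2, a hexokinase gene, at 21.3 to 22.3 FPKM in soft gels and 21.9 to 23 FPKM in stiff gels. It was the most abundant hexokinase gene by the mean over all 6 libraries, but in soft gels Hk1 stood slightly above it. Hk1 was at 23 ± 2.84 FPKM in soft gels and 19.4 ± 2.56 FPKM in stiff gels (SD, n = 3 each; log2 fold change -0.23 ± 0.11 SE, limma adjusted p = 0.272), with overlapping groups. Pgk1, the gene of phosphoglycerate kinase, was at 479, 717 and 549 FPKM in soft gels and 329, 442 and 194 FPKM in stiff replicates 1 to 3 (log2 fold change -0.91 ± 0.26 SE, limma adjusted p = 0.0816). Ldha, which encodes a lactate dehydrogenase subunit, was at 245, 334 and 307 FPKM in soft gels and 171, 229 and 117 FPKM in stiff replicates 1 to 3 (-0.82 ± 0.21 SE, limma adjusted p = 0.0613). Slc16a3, the lactate exporter gene, was at 19.6, 32.4 and 20.6 FPKM in soft gels and 9.81, 16.4 and 2.11 FPKM in stiff replicates 1 to 3 (-1.55 ± 0.52 SE, limma adjusted p = 0.12). Stiff replicate 3 was the lowest of all 6 libraries for 11 of these 12 genes, and for Pfkl, Pfkp and Pfkfb3 too. Over all tested genes it was the lowest for 15.1%, which is not a like background. A gene with every stiff library below every soft one has its lowest value in a stiff library by definition. Nothing is read from the difference between these shares. Soft replicate 2 was the highest soft library for 11 of the 12 genes, as for Pfkl and Pfkp, against 29.1% of all tested genes. Nothing is read from that either, since genes with alike patterns, such as Slc16a3 and Tpi1, are not separate observations. Slc2a1, Gpi1, Aldoa, Tpi1, Pgam1, Eno1 and Pkm, the genes of the other steps, had log2 fold changes from -0.83 (Aldoa) to -0.27 (Slc2a1) and were not called.

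**Figure D4:**
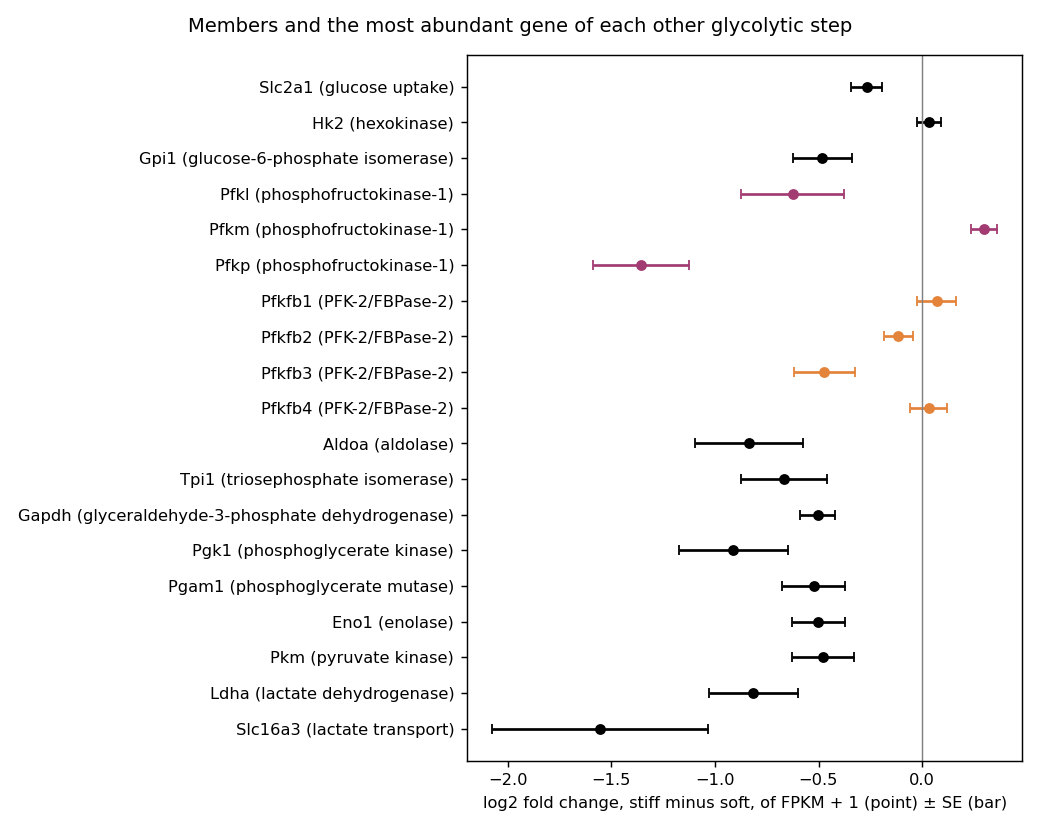
Log2 fold change, stiff minus soft, of FPKM + 1 (horizontal axis; points with SE bars from the fit) for the most abundant gene of each glycolytic step (black), the phosphofructokinase-1 genes (purple) and the Pfkfb genes (orange), in pathway order. Pfkm (0.30) lies on the other side of 0 from Pfkp (-1.36) and Pfkl (-0.63). The gene shown lies below 0 for 11 of the 12 other steps, and less abundant genes of these steps are not shown.

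Of 22 tested genes for hypoxia-inducible factors and their known targets outside glycolysis, 3 fell and 1 rose (limma, adjusted p under 0.05), against 2.68% lower and 3.13% higher over all tested genes. Limma-voom called 6 lower and 1 higher. Ddit4, an inhibitor of mTORC1 signalling, went from 92.7 ± 4.99 to 65.6 ± 3.01 FPKM (limma adjusted p = 0.00918). Egln3, an oxygen-sensing prolyl hydroxylase gene, went from 3.53 ± 0.532 to 2.00 ± 0.389 FPKM (0.0248). Fam162a, which encodes a mitochondrial protein, fell from 125 ± 12.9 to 72.2 ± 21.6 FPKM (0.033), and Mxi1, which encodes an antagonist of MYC, rose from 9.93 ± 0.807 to 14.2 ± 0.572 FPKM (limma adjusted p = 0.0109). The list had 12 of 22 genes (54.5%) with every stiff library below every soft one and 2 with every stiff library above, against 10.4% and 15.5% of all tested genes. Hif1a itself was at 46.8 to 53.6 FPKM in soft gels and 51.2 to 56.2 FPKM in stiff gels. Ddit4 was called whichever library was left out. Egln3 and Fam162a lost their calls in the fits that left out soft replicate 2, soft replicate 3, stiff replicate 1 or stiff replicate 3, with limma adjusted p reaching 0.102 and 0.13. Fam162a also lost its call without the filter on low values (0.0618). For Mxi1 the call was lost when soft replicate 2 (0.0589) or stiff replicate 3 (0.0515) was left out.

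Of 14 genes that govern the entry of pyruvate into mitochondria, Pdk4, a kinase that inhibits pyruvate dehydrogenase, fell from 43.9 ± 5.85 to 29.3 ± 1.20 FPKM (SD, n = 3 each; limma adjusted p = 0.0147). It was the 1 lower call beside 0 higher, against 2.68% and 3.13% of all tested genes. Pdk4 lost its call in the same 4 leave-out fits as Pfkp (limma adjusted p up to 0.0658), and Gapdh without soft replicate 2, stiff replicate 1 or stiff replicate 3 (up to 0.0694). The pentose phosphate pathway, which branches off before phosphofructokinase, had 0 of 8 genes called (limma; 2 higher and 0 lower at an unadjusted p under 0.05; 0 by limma-voom). Over all tested genes 5.81% were called, and 12.7% were higher and 9.04% lower at the unadjusted p, so 0 of 8 is near the background. Its median log2 fold change was 0.13. Of 13 genes for kinases and ubiquitin ligase parts known to act on these proteins, such as Trim21, whose ligase targets phosphofructokinase, 0 were called (limma; 1 higher and 1 lower at an unadjusted p under 0.05; 0 by limma-voom), near the same background of 5.81%. Trim21 was at 2.32 to 3.14 FPKM in soft gels and 2.71 to 3.00 FPKM in stiff gels.

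The genes whose pattern over the 6 libraries was most like each isoform differed between isoforms. For Pfkl the 4 highest Pearson correlations of log2(FPKM + 1), 0.991 to 0.993, were with Slc16a3, Pgm1 (phosphoglucomutase), Car9 (a carbonic anhydrase) and Tpi1 (triosephosphate isomerase). For Pfkp they were with Wfdc18, Gpr153, Lox (lysyl oxidase) and Cd74, at 0.996 to 0.997. Among those for Pfkfb3 were Vps8, Tgfbr2 (the TGF-beta type II receptor) and Vcl (vinculin), at 0.994 to 0.996. Among those for Pfkm were Polr1d, Antkmt and Zfp764, at 0.990 to 0.997. Car9 was at 20.9, 35.4 and 23.6 FPKM in soft gels and 13.6, 19.2 and 2.93 FPKM in stiff replicates 1 to 3, with stiff replicate 3 far below the others as for Pfkl. Lox was at 14.7, 36.3 and 34.7 FPKM in soft gels and 6.32, 9.22 and 3.60 FPKM in stiff replicates 1 to 3, with soft replicate 1 between the gels as for Pfkp. These values describe 6 libraries that share the split into 2 gels, among 11780 genes, and carry no test. Between members, r was 0.93 for Pfkp and Pfkfb3, 0.86 for Pfkp and Pfkl and -0.83 for Pfkp and Pfkm.

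**Figure D5:**
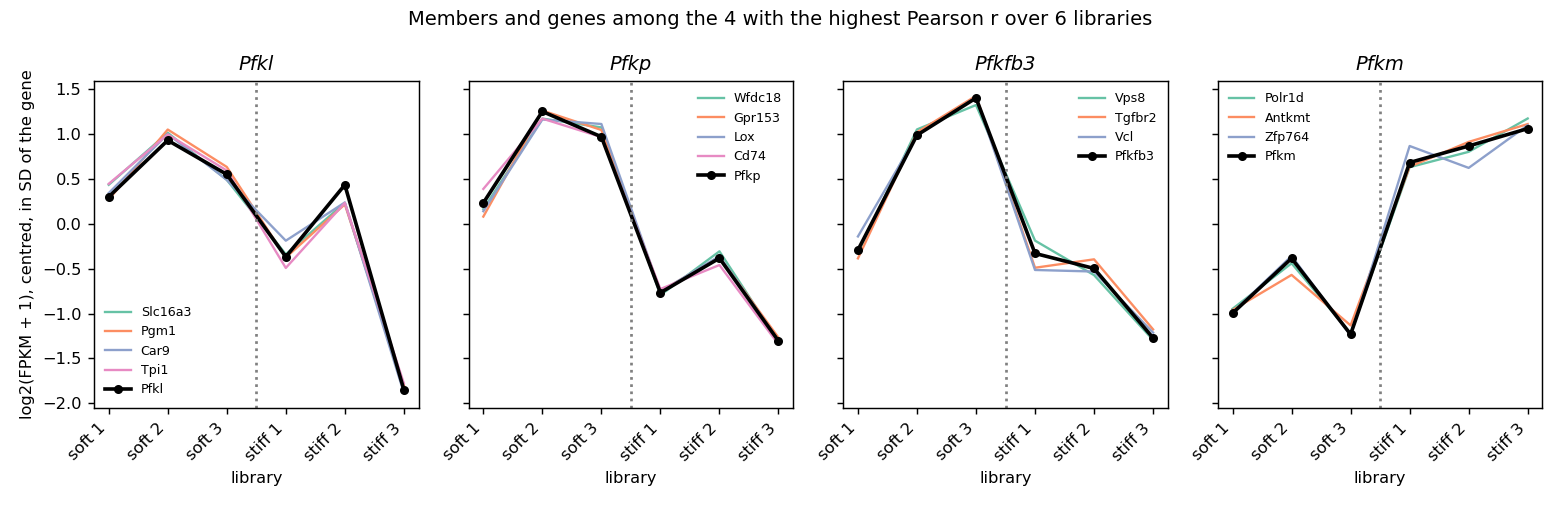
Centred log2(FPKM + 1) in SD of each gene (vertical axis) over the 6 libraries (horizontal axis; lines only join the libraries of a gene) for 4 members (black) and 3 or 4 of the genes most like each by Pearson r. The Pfkl panel drops most in stiff replicate 3, the Pfkp panel shows soft replicate 1 between the gels, the Pfkfb3 panel shows it close to stiff replicate 1, and the Pfkm panel is higher in all stiff libraries.

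Marker genes of several cell types moved between the gels beside Pfkp and Pfkm. Of 5 tested markers of supporting and prosensory cells 3 rose and 0 fell (limma), namely Sox2, Lgr5 and Jag1. Over all tested genes 3.13% were called higher and 2.68% lower, which is also the background for the marker counts that follow. The summed level of the 7 markers in the table was 266 to 336 FPKM in soft gels and 354 to 399 FPKM in stiff gels. That sum is mostly Epcam, at 229 ± 21.1 and 268 ± 16.3 FPKM, with overlapping groups and no call (limma adjusted p = 0.147). Sox9 was not called either, at 24.6 ± 2.51 and 26.3 ± 3.03 FPKM, and Prox1 and Fgfr3 were below the filter. Of 4 tested endothelial markers 1 fell, Kdr, with sums of 391 to 457 FPKM in soft gels and 340 to 426 FPKM in stiff gels. Those sums are mostly Emcn, at 396 ± 28.5 and 357 ± 43.1 FPKM, and Cdh5 was at 0.692 to 1.43 FPKM over all libraries. Tek went the other way on average, at 4.90 ± 0.513 and 5.37 ± 0.466 FPKM, with overlapping groups and no call. Kdr went from 24.7 ± 5.17 to 10.7 ± 2.04 FPKM (SD, n = 3 each; limma adjusted p = 0.0104), while Pecam1, a defining endothelial marker, was at or below 0.134 FPKM in every library. Of 6 tested mesenchymal markers 0 were called (limma; 1, Col3a1, at an unadjusted p under 0.05; 1 lower by limma-voom), with sums of 176 to 240 and 167 to 204 FPKM. The part of these shifts in the differences of Pfkp, Pfkl, Pfkm and Pfkfb3 was not tested. Hair cell markers were low apart from Myo6 (20.7 to 25.0 FPKM over all libraries), with Gfi1 and Otof at or below 0.180 FPKM in every library, and Atoh1 and Pou4f3 were not analysed here. Of the skeletal muscle markers, Acta1 was at or below 0.237 FPKM in every library, and Mylpf was at 0.786 to 1.80 FPKM in soft gels and 1.58 to 2.23 FPKM in stiff gels. Of the platelet markers, Pf4 was at or below 0.855 FPKM in every library, and Itga2b was at 0.715 to 1.33 FPKM in soft gels and 0.795 to 1.24 FPKM in stiff gels. Their part in the levels of Pfkm and Pfkp was not tested either.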

How the data were processed

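The members and gene lists were chosen with earlier results of these data known. Per the submitters' processing notes, reads were aligned with TopHat2 2.1.1 to mm10 and DESeq2 was used. The sources used here name neither a read counter nor an annotation. Libraries were made with a TruSeq v2 kit, which does not mark strand, per the labels' protocols. The deposited expression columns were taken as FPKM from their values, since the header names no unit. The deposited base mean is a signal (mean normalized count), and the authors' log2 fold change, fold ratio, score (the test statistic), p-value and q-value come from their stiff-against-soft comparison, per the file headers.

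Reads rebuilt from FPKM and base mean were whole within 0.05 reads for 100% of values, and 3 reads, the limit a count of 0 allows, equal 0.168 to 0.186 CPM (counting error only). Genes with a mean of at least 1 FPKM in either group were tested with limma 3.58.1 (R 4.3.3, intensity trend) on log2(FPKM + 1), Benjamini-Hochberg adjusted over 11780 genes. The rebuilding of reads and the fit were also run on simulated counts. Their spread was set and not taken from these libraries, so this does not show how reliable the calls are. Alternatives were a pseudocount of 0.1, no filter, median-ratio scaling, limma-voom on rebuilt reads, a replicate block and leaving out each library. Besides the members and the opposing phosphatases, named genes were the called list members (at most 4 per direction), the most abundant gene of each glycolytic step and the 4 genes, predicted-gene names left out, most like Pfkl, Pfkm, Pfkp and Pfkfb3. Other genes (among them Hif1a, Trim21, Hk1 and the markers) were named after their values were seen. Motifs were searched in RefSeq promoter windows (GRCm38.p6), and gene coordinates come from GENCODE M21 (GRCm38, the same build as mm10). Protein sequences were not used here, and some genes of the likeness and marker lists are not reported here.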

Additional observations from a re-analysis of the deposited data

How the results depend on the processing

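Leaving out 1 library moved the number of genes called higher from 369 to between 50 and 860 and of those called lower from 316 to between 15 and 767. The listed pathway genes outside the 7 members had 1 higher and 5 lower calls, and between 0 and 2 higher and between 1 and 19 lower without 1 library. Limma-voom on rebuilt reads gave 10 lower. With the replicate number as a block there were 20 lower pathway genes, 381 higher and 329 lower genes in all, and Pfkm was not called (log2 fold change 0.30), while Pfkp was. The labels do not say whether same-numbered libraries are pairs, and correlations over so few libraries cannot decide it. Deviations of same-numbered libraries correlated at 0.01, 0.22 and -0.21, and only soft replicate 2 correlated best with its own number. The block lowered the SE of Pfkp from 0.23 to 0.17 and of Pfkl from 0.25 to 0.17. It raised the SE of Pfkm from 0.06 to 0.07. The cause of these shifts was not tested. The log2 fold change of Pfkfb4 ran from -0.010 (without stiff replicate 3) to 0.070 without 1 library, and the other 6 members kept their sign in each setting run. The share differences (stiff minus soft) were -7.83 percentage points for Pfkp (-9.49 to -6.87 without 1 library), 13.9 for Pfkm (8.66 to 17.8) and -6.05 for Pfkl (-9.86 to -0.95), and -8.43, 12.5 and -4.08 as shares of rebuilt reads. Median-ratio scaling kept the direction of all 7 members. Of the members Pfkfb1 has the fewest reads, 57 to 74 per library.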
